A study of Mus musculus with 12 samples.

Results

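The 12 RNA-Seq libraries of donor T cells from the liver were made in 2 sets, and the sets are compared here. Replicate 1 holds the 6 libraries with facility numbers 44734 to 44739 and replicate 2 the 6 with numbers 44872 to 44877, so that all 12 libraries of the series belong to one set or the other. Each set has 1 library for each of 3 donor genotypes in CD4+ and in CD8+ T cells, and libraries were paired within genotype and subset, which gives 6 pairs. The question is which genes and programs vary between the 2 sets of pools.

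All recipients were irradiated BALB/c mice, labelled WT, that were given C57BL/6 donor T cells with T cell-depleted bone marrow from WT C57BL/6 donors, and donor T cells were sorted from the liver on day 6 after HCT. To isolate the cells, the study mashed livers through a strainer and used Percoll, with no enzyme named for this step. WT donors carried no targeted allele. STAT3ko donors (STAT3-/- in the study's text) carried floxed Stat3 alleles and CD4-Cre, which deletes in T cells, and STAT3ko PD-1ko donors carried a germline PD-1 deletion as well. Each library combined the lymphocytes of 3 recipients, so a library is a pool and says nothing about single mice. The study states that CD8+ T cells came from the same livers as the CD4+ T cells, without naming the mice of each library. Their counts were therefore added to 1 sum per pool, which leaves 3 pool pairs and 2 residual degrees of freedom. Replicate number cannot be told apart from the day of the experiment, the sort, the RNA preparation, or the facility submission. Totals ranged from 21676125 to 24150842 counts per library in replicate 1 and from 22692282 to 24551477 in replicate 2, so the sets were of nearly equal depth.

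The libraries matched their labels as T cells. Of 11 T cell identity genes tested, which include the CD3 chains and the kinases Lck and Zap70, 1 passed the test between the sets, beside 0.721% of all genes. It was the costimulatory receptor Cd28. In WT and STAT3ko libraries alone, 3 of 11 were lower and 1 higher in CD4+ T cells, beside 17.1% and 14.8% of all genes. In their CD8+ T cells 2 were lower and 2 higher, beside 15.6% and 13.2%. Cd4 lay between 1257 and 1897 CPM (reads of a gene scaled to the TMM-adjusted total of its library) in the 6 CD4+ libraries and between 0.350 and 2.77 CPM in the 6 CD8+ libraries. Stat3 lay between 364 and 467 CPM in WT libraries and between 136 and 238 CPM in all other libraries. Its count also covers exons that the deletion leaves, so it does not measure the deletion. Pdcd1, which encodes PD-1, lay between 235 and 455 CPM in WT and STAT3ko libraries and between 26.3 and 94.0 CPM in STAT3ko PD-1ko libraries.

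Immediate early genes are transcribed within minutes of a stimulus, without new protein synthesis, and their RNAs are short lived. In T cells they follow signals from the T cell receptor, and many also respond to stress and to enzymatic handling of tissue. They encode transcription factors such as the FOS, JUN, and NR4A proteins, and feedback inhibitors such as the phosphatase DUSP1, the RGS proteins, and the ubiquitin-editing enzyme TNFAIP3. Donor T cells of an inflamed liver lie among Kupffer cells, sinusoidal endothelium, and hepatocytes, all of which can leave RNA in a sorted fraction.

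Replicate number was the third source of variation after genotype and subset. Over 12753 genes, genotype accounted for 40.6% of the sum of squares of log2 CPM, subset for 30.5%, and replicate number for 11%. Differences in the replicate effect between genotypes took a further 7.34%, and those between subsets took 2.02%. The third principal component, which held 12.3% of the variance, separated the sets, with every replicate 1 library on one side of 0 and every replicate 2 library on the other. For 1759 genes, replicate number was the largest source.

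The replicate difference was shared between WT and STAT3ko pools and less so with STAT3ko PD-1ko pools. Across genes, the log2 difference of a WT pair correlated with that of a STAT3ko pair at r = 0.46 to 0.63. The CD4+ and CD8+ pairs of the same genotype, which share livers by the study's account, correlated at r = 0.57 to 0.60. A STAT3ko PD-1ko pair correlated with a pair of another genotype at r = 0.07 to 0.29. These are descriptions over the same 12753 genes, which are not independent of each other, and each genotype has 1 pool of each number. A difference between genotypes in the replicate effect was not tested.

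**Figure D1:**
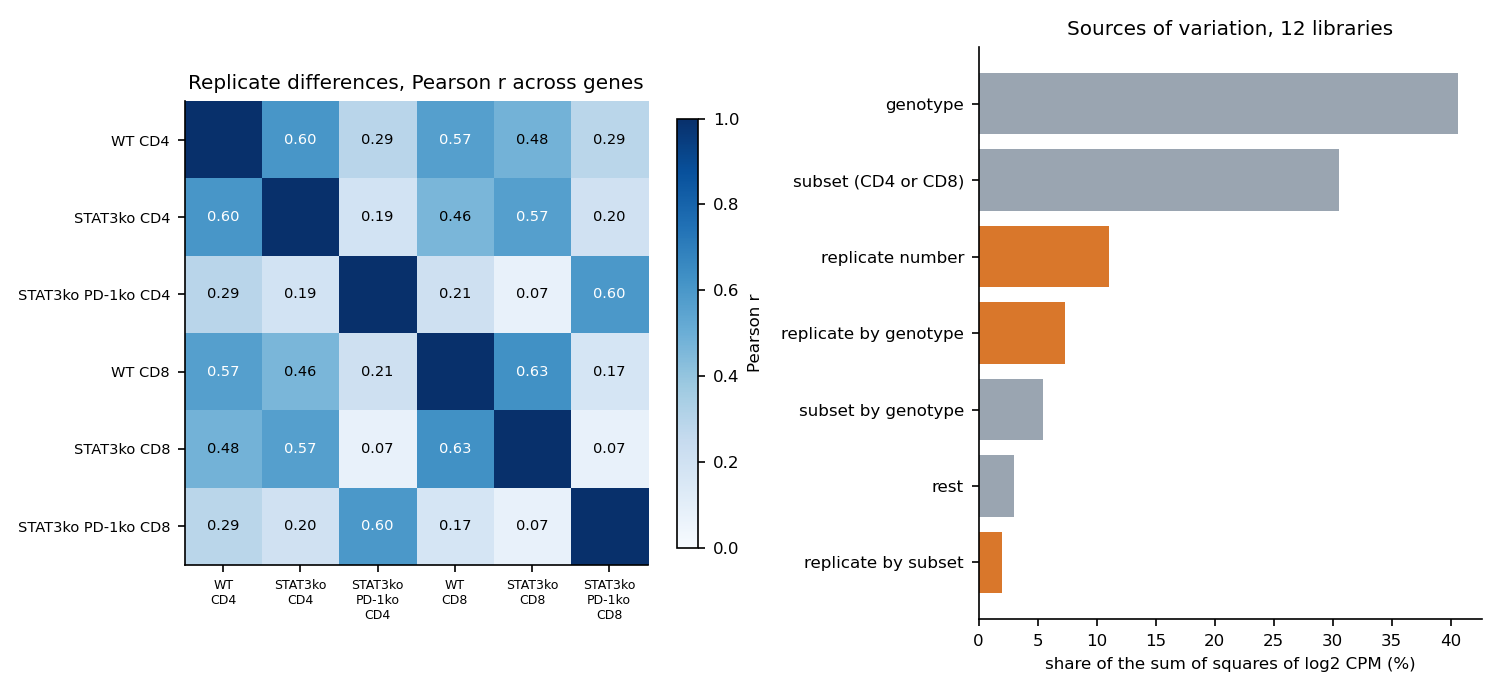
Left, Pearson r across 12753 genes between the log2 differences (replicate 2 minus replicate 1) of the 6 library pairs, with WT and STAT3ko pairs at 0.46 to 0.63 and STAT3ko PD-1ko pairs at 0.07 to 0.29 with other genotypes. Right, percent of the sum of squares of log2 CPM by source over 12 libraries, with the replicate sources in orange (replicate number 11%).

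In the pool sums, 60 of 12753 genes were lower in replicate 2 (0.47%) and 32 were higher (0.251%). The threshold was an adjusted p under 0.05 in edgeR's quasi-likelihood test, paired within genotype. On simulated data this fit made more false calls than that threshold allows. The genes that fell included 16 from a list of immediate early and tissue dissociation genes, called immediate early genes here. The genes that rose changed less at the median. The median log2 fold change was -1.44 among the 60 and 0.79 among the 32, and 43 of the 60 fell by more than 2-fold. All 60 were lower in each of the 6 library pairs, beside 8.01% of all genes tested. Of the 32, 31 were higher in each pair, beside 11.5% of all genes, with Capn11 as the exception. The 12 libraries of the 2 sets did not overlap for 31 of the 60 and 23 of the 32, beside 2.67% of all genes. The 60 and the 32 were chosen by a paired test on sums of the same libraries. Their agreement over pairs therefore follows in part from that choice and is not separate evidence. Just inside the threshold stood Zfyve26 (adjusted p = 0.0492) and 5730480H06Rik, and just outside it stood Smad7 and Nfil3 (both adjusted p = 0.0502 in edgeR's quasi-likelihood test). For a single gene, an exact permutation test over 3 pool pairs cannot go below p = 0.25 (2-sided).

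**Figure D2:**
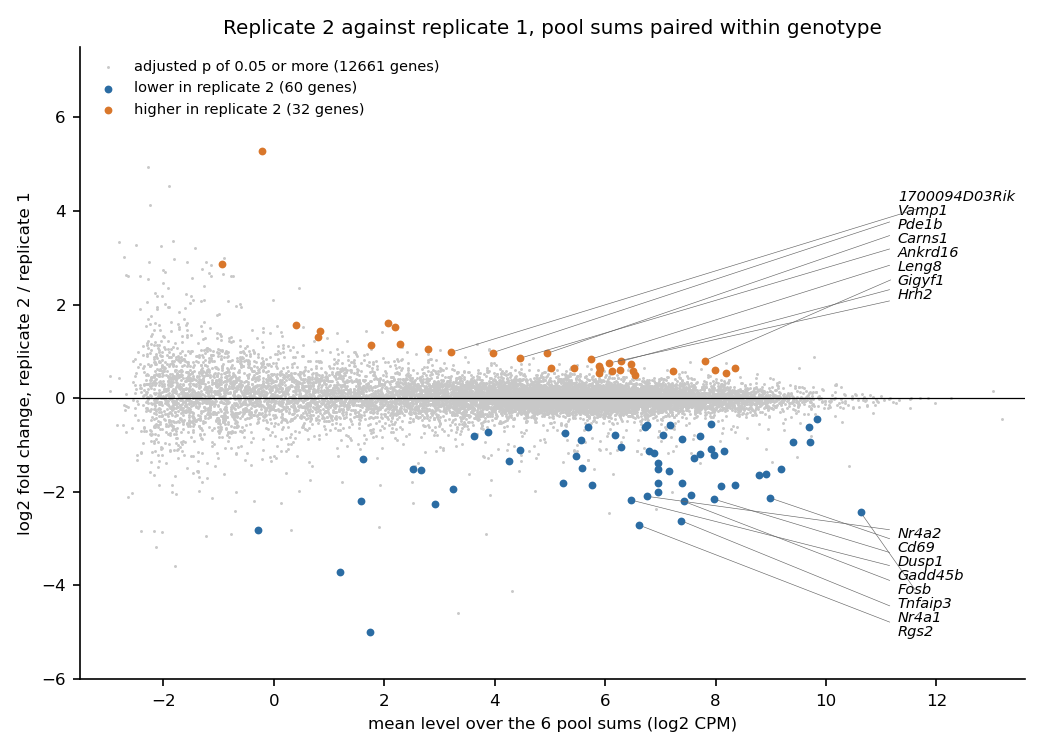
Log2 fold change of replicate 2 over replicate 1 against the mean log2 CPM of the 6 pool sums, 1 point a gene, with 60 genes lower (blue), 32 higher (orange), and the rest gray. The 8 largest falls (Rgs2 to Nr4a2, -2.71 to -2.10) and the 8 largest rises (1700094D03Rik to Hrh2, 0.98 to 0.75) among genes of at least 3 log2 CPM are named.

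These counts depended on the genotypes included. Without the STAT3ko PD-1ko pools, an alternative chosen after seeing the data, 1559 of 12435 genes were lower (12.5%) and 1623 higher (13.1%), and DESeq2 called 860 and 863 on the same 4 sums. All 60 and all 32 genes were again called in the same direction. That fit has 1 residual degree of freedom. It leaves out the genotype whose replicate differences were least like the others, which lowers the spread between the remaining pools. Throughout, its calls are therefore not separate support for a gene or a list. The choice of genotypes also matters in the other direction. When a single pool is left out, its partner has no pair and adds nothing to the replicate difference. A fit that lacks a WT pool therefore compares the replicates in STAT3ko and STAT3ko PD-1ko only, again with 1 residual degree of freedom. Without the WT pool of replicate 1 or of replicate 2, only 3 genes were higher in edgeR, and 31 or 46 were lower.

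Among the 60 called genes, the largest falls were of genes at low levels. Areg, which encodes the growth factor amphiregulin, was at 0.621 to 16.1 CPM in replicate 1 and at 0 to 0.322 CPM in replicate 2, without overlap. It fell by 5.00 on the log2 scale (SE 0.410, adjusted p = 0.0135 in edgeR's quasi-likelihood test). Dusp8, a phosphatase for MAP kinases, fell by 3.71 and Acod1, the enzyme that makes itaconate, by 2.82, both below 3 log2 CPM on average.

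Among fallen genes of at least 3 log2 CPM, feedback inhibitors of signaling were among the 8 with the largest falls. Rgs2, a brake on G protein signaling, was at 225.5, 265.3, and 62.3 CPM in WT, STAT3ko, and STAT3ko PD-1ko CD4+ libraries of replicate 1, and at 25.5, 29.9, and 14.6 CPM in replicate 2. In CD8+ libraries it was at 224, 185, and 74.5 CPM in replicate 1 and at 26.3, 28.7, and 18.6 CPM in replicate 2. All 6 libraries of replicate 2 lay below all 6 of replicate 1, and Rgs2 fell by 2.71 on the log2 scale (SE 0.211, 6.55-fold lower, adjusted p = 0.0118 in edgeR's quasi-likelihood test). Rgs16 and Rgs1 of the same family fell by 2.00 and 1.87 on the log2 scale.

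Dusp1, a phosphatase that switches off MAP kinases, gave the smallest adjusted p of all genes (0.000682 in edgeR's quasi-likelihood test). In replicate 1 it was at 621.5, 613, and 293 CPM in WT, STAT3ko, and STAT3ko PD-1ko CD4+ libraries and at 360.5, 418, and 167 CPM in CD8+ libraries. In replicate 2 it was at 164, 140.5, and 73.4 CPM in CD4+ libraries and at 52.1, 82.6, and 37.5 CPM in CD8+ libraries. It fell by 2.16 on the log2 scale (SE 0.0745, 4.46-fold lower), by a like size in each genotype, and the sets did not overlap. Dusp5, a nuclear phosphatase for ERK, fell by 1.86.

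Tnfaip3, also known as A20, restrains NF-kB and was among the most abundant of the fallen genes. In replicate 1 it was at 3920, 4074, and 1236 CPM in WT, STAT3ko, and STAT3ko PD-1ko CD4+ libraries and at 3070.2, 3147, and 905 CPM in CD8+ libraries. In replicate 2 all 6 libraries lay between 329.8 and 568.7 CPM. The sets did not overlap, and Tnfaip3 fell by 2.44 on the log2 scale (SE 0.306, adjusted p = 0.0372 in edgeR's quasi-likelihood test). The STAT3ko PD-1ko libraries of replicate 1 were the lowest of their set and lay nearest to replicate 2. Gadd45b, a stress sensor induced by NF-kB, fell by 2.18 and its sets overlapped. Nfkbiz, an atypical IkB protein, fell by 1.62.

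Several transcription factors fell, among them 2 orphan nuclear receptors. Nr4a1, known as a reporter of T cell receptor signaling, was at 505, 457.5, and 175 CPM in WT, STAT3ko, and STAT3ko PD-1ko CD4+ libraries of replicate 1 and at 64.1, 52.9, and 52.4 CPM in replicate 2. In CD8+ libraries it was at 254, 255, and 93.1 CPM in replicate 1 and at 26.1, 28.6, and 36.4 CPM in replicate 2. The sets did not overlap, and Nr4a1 fell by 2.62 on the log2 scale (SE 0.312, adjusted p = 0.0331 in edgeR's quasi-likelihood test). Nr4a2 fell by 2.10, to between 21.02 and 57.2 CPM from between 108 and 243 CPM. Fosb fell by 2.2, Junb by 1.64, Klf6 by 1.52, Fos by 1.38, and Irf4, a factor of T cell activation, by 1.22 on the log2 scale. For Fosb, Junb, and Fos the sets overlapped across genotypes and subsets, although each pair fell. Atf3, a stress-induced factor, had the largest fold change of the immediate early list without passing the test. It was at 1.60 to 47.2 CPM in replicate 1 and at 0.242 to 1.45 CPM in replicate 2 without overlap (log2 fold change -4.59, adjusted p = 0.0632 in edgeR's quasi-likelihood test). In WT and STAT3ko alone, a fit chosen after seeing the data, the log2 fold change of Atf3 was -5.90. Csrnp1 and Klf4 did not pass either (-1.99 and -1.98, both adjusted p = 0.0632 in edgeR's quasi-likelihood test). Their log2 fold changes were -2.55 each in WT and STAT3ko alone. Egr2 and Egr3, which also follow T cell receptor signals, did not pass the test (log2 fold changes 0.21 and -0.09), and that of Egr3 was 0.31 in WT and STAT3ko alone.

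**Figure D3:**
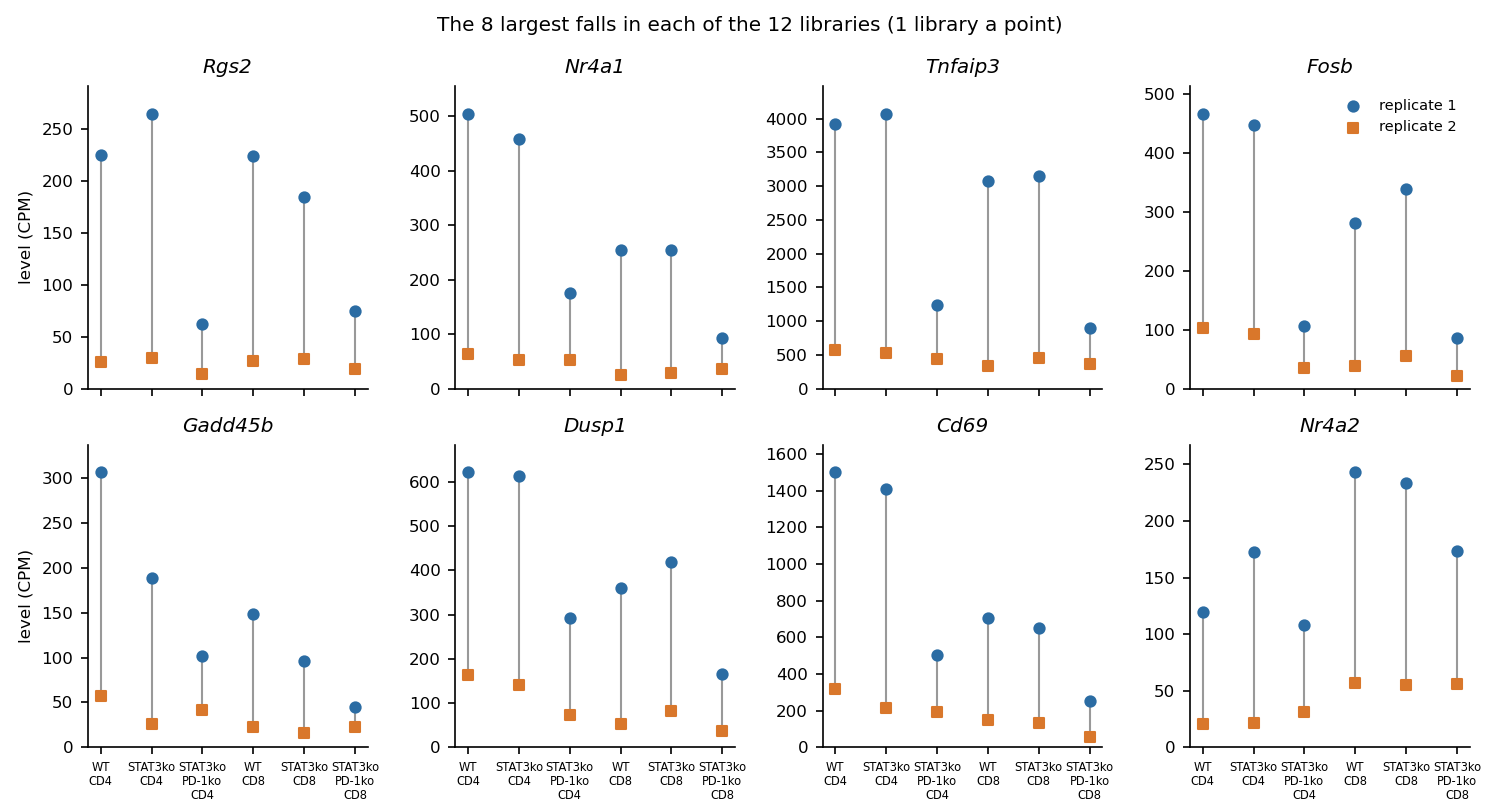
Level in CPM (linear axis from 0) of the 8 genes with the largest falls, among called genes of at least 3 log2 CPM, in each of the 12 libraries, replicate 1 as blue circles and replicate 2 as orange squares, with a line for each pair. Replicate 2 lies below replicate 1 in every pair, and the STAT3ko PD-1ko libraries of replicate 1 are the lowest of replicate 1 within each subset for all 8 genes.

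The promoters of these genes are shown because they fell together and because the cyclic AMP response element (CRE) is a known switch of immediate early transcription. Of the 8 largest falls at 3 log2 CPM or more, 7 had a sequence in the RefSeq promoter table (build GRCm38.p6, that of the files), and Cd69 had none. The core letters TGACG were searched on both strands in the 250 bases before the start site, and 6 of the 7 held them. The same letters were in 28.0% of 10107 promoters of genes tested. TGACG lies within the full element TGACGTCA, which was in 2.83% of the promoters. Over the 47 of 60 fallen genes with a promoter in the table, 25 held TGACG (53.2%) and 6 held TGACGTCA. The other motifs searched on both strands were the AP-1 letters TGANTCA (1 of 47, and 4.24% of all promoters), the CArG box (2 of 47, 1.09%), the NF-kB site (3 of 47, 4.46%), and the E-box CACGTG (8 of 47, 8.26%). The table covered 79.25% of all genes tested, and so many genes had no promoter in it that the comparison of shares is void. Capitals mark TGACG or its complement CGTCA. The windows, each written 5′ to 3′ on the strand of its gene, are chr17:26508473-26508722 (minus strand) for Dusp1, chr2:57124004-57124253 (minus strand) for Nr4a2, and chr15:101266596-101266845 (plus strand) for Nr4a1.
Dusp1: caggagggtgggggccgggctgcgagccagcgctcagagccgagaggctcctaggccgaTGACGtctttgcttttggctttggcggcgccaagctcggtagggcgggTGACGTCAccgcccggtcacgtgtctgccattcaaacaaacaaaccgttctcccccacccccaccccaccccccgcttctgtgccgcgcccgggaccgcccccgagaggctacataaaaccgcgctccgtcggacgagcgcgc
Nr4a2: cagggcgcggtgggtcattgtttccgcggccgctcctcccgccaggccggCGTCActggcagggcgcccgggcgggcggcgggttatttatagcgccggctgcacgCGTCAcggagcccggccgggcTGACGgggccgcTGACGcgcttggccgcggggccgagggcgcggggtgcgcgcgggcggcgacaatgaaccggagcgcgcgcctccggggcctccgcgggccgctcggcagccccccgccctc
Nr4a1: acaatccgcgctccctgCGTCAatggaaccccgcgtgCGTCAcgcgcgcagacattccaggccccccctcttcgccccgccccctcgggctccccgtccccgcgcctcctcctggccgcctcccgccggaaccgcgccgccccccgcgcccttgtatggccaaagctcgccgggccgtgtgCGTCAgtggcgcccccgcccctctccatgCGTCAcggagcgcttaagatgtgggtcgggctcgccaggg
In Dusp1 the full element TGACGTCA begins 143 bases before the start site, and Nr4a2 and Nr4a1 each hold the core 4 times. A match in letters is not evidence of binding.

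Several genes for surface molecules, and a few for cytokines, also fell. Cd69, an early activation marker that also holds T cells in tissue, was at 1499.5, 1410, and 504 CPM in WT, STAT3ko, and STAT3ko PD-1ko CD4+ libraries of replicate 1 and at 317, 217.5, and 194 CPM in replicate 2. In CD8+ libraries it was at 707, 648, and 252 CPM in replicate 1 and at 148, 135, and 58.1 CPM in replicate 2. Each pair fell, the sets overlapped across genotypes, and Cd69 fell by 2.13 on the log2 scale (SE 0.179, adjusted p = 0.0135 in edgeR's quasi-likelihood test). Cxcr4, the receptor for CXCL12, fell by 1.80, the oxysterol receptor Gpr183 by 1.17, Cd28 by 0.94, and the transferrin receptor Tfrc by 0.79. Il10, an inhibitory cytokine, fell by 1.86 to between 12.04 and 30.8 CPM from between 31.6 and 154 CPM. Ifng, the effector cytokine of type 1 responses, fell by 1.13 (SE 0.129) to between 120 and 260 CPM from between 325 and 477 CPM, with no overlap. Fasl, which triggers death of target cells, also fell by 1.13 (SE 0.0736). Other cytokine genes did not pass the test, so that 2 of 24 cytokine and chemokine genes were lower, beside 0.47% of all genes, and none was higher in edgeR. The list median was -0.49, and it ran from -0.59 to 0.10 over the 6 pairs. With WT and STAT3ko alone, 7 of 24 were lower and 4 higher (median -0.26), beside 12.5% and 13.1% of all genes.

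Of 34 immediate early and tissue dissociation genes, 16 were lower (47.1%) and none was higher in replicate 2, beside 0.47% of all genes tested. The fold change was negative for 33 of the 34, and the list median was -1.45 on the log2 scale against 0.0044 for all genes. The median was -1.51 and -1.78 in the CD4+ pairs and -1.71 and -1.63 in the CD8+ pairs of WT and STAT3ko, and -1.04 and -0.97 in the STAT3ko PD-1ko pairs. Without the STAT3ko PD-1ko pools 29 were lower and 1, Egr2, was higher, with a median of -1.65. The RNA decay factors Btg2 and Zfp36 fell by 1.28 and 1.20. Of 31 genes of the unfolded protein and ATF4 response, 2 were lower, and in WT and STAT3ko alone 17 of 30 were lower and none was higher in edgeR, beside 12.5% of all genes. These were Ppp1r15a, which ends the arrest of translation under stress and fell by 2.06 on the log2 scale, and the chaperone Dnajb9, which fell by 1.5. Of 14 glucocorticoid response genes 2 were lower, Dusp1 and Cxcr4, and the other 12 did not pass. With WT and STAT3ko alone, 9 of the 14 were lower and 3 higher, beside 12.5% and 13.1% of all genes.

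Few replication-dependent histone genes, whose RNAs mostly lack poly(A) tails, passed the test. Of 34 tested, all at low levels, 33 had a negative fold change and 2 (5.88%, beside 0.47% of all genes), H2bc4 and H2aw, fell (log2 fold changes -1.52 and -1.30), with a list median of -0.73. The median ranged from -0.89 to -0.38 over the 6 pairs. H1f2, the most abundant, was at 16.5 to 21.68 CPM in replicate 1 and at 5.23 to 13.2 CPM in replicate 2 without overlap. It did not pass the test (log2 fold change -1.29, adjusted p = 0.0628 in edgeR's quasi-likelihood test). In WT and STAT3ko alone, a fit chosen after seeing the data, its log2 fold change was -1.61. None of 52 DNA replication genes and none of 57 mitosis genes passed the test (medians -0.08 and -0.14), and Mki67 had a log2 fold change of -0.09. The fold change was negative for 41 of the 52 and for 52 of the 57, and the median of the mitosis genes was negative in each of the 6 pairs (-0.37 to -0.10). In WT and STAT3ko alone, 17 of 52 replication genes, 22 of 57 mitosis genes, and 7 of 30 histone genes were lower, beside 12.5% of all genes. With the 12 libraries as separate samples, 18 of the 57 mitosis genes were lower, beside 7.02% of all genes. Here and below, that fit ignores that the CD4+ and CD8+ libraries of a pool share livers by the study's account.

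The genes that rose did so by less than 2-fold in most cases and belong to no list that was compared, except Il6st and Lyz2. Leng8, Gigyf1, Tnrc6a, Rc3h2, Pnisr, and Hnrnph3, which encode RNA-binding or RNA-regulating proteins, were picked out after their values were seen. The share of such genes among all genes was not counted, so they are described singly and not as a group. Leng8, which acts in nuclear RNA export and splicing, was at 151 to 185 CPM in replicate 1 and at 241 to 326 CPM in replicate 2 without overlap (log2 fold change 0.80, SE 0.0755, adjusted p = 0.0173 in edgeR's quasi-likelihood test). Gigyf1, a translational repressor, was at 53.3 to 63.4 CPM in replicate 1 and at 88.1 to 113 CPM in replicate 2 (log2 fold change 0.78). Tnrc6a, a partner of Argonaute in silencing by microRNAs, rose by 0.60, the RNA decay factor Rc3h2 (Roquin-2) by 0.60, and Pnisr by 0.59 on the log2 scale.

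Among the other rises, Ankrd16 was at 31.7 to 43.2 CPM in replicate 1 and at 58.0 to 80.5 CPM in replicate 2 (log2 fold change 0.83, SE 0.0864), with replicate number accounting for 88.0% of its sum of squares. Pde1b, which breaks down cyclic nucleotides, rose by 0.95, the vesicle fusion gene Vamp1 by 0.97, the carnosine synthase Carns1 by 0.85, and the histamine H2 receptor Hrh2 by 0.75. Il6st, the gp130 chain shared by IL-6 family receptors upstream of STAT3, rose in each pair, from 46.3 to 70.1 CPM in replicate 1 to 62.8 to 105 CPM in replicate 2 (log2 fold change 0.57, SE 0.0754, adjusted p = 0.043 in edgeR's quasi-likelihood test). It is the 1 of 25 STAT target genes tested that rose, beside 0.251% of all genes. Junb and Fos are the 2 of that list that fell, beside 0.47% of all genes. In WT and STAT3ko alone, 6 of the 25 were higher and 8 lower, beside 13.1% and 12.5% of all genes.

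The structure of fallen and risen genes is given beside that of all genes. The fallen genes had a median of 5 exons in their longest coding transcript, the risen genes 13, and all genes tested 9. The letters TATTTAT, the core of AU-rich decay elements, were in the 3′ UTR of 31 of 58 fallen genes with one (53.4%), of 8 of 29 risen genes (27.6%), and of 29.4% of all genes with a 3′ UTR. The GC content of the transcripts had a median of 47.7% for fallen, 52.5% for risen, and 50.2% for all genes. These are descriptions with no test, over the 96.7% of fallen and 90.6% of risen genes that matched a coding transcript of GENCODE M21.

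Genes of metabolic and biosynthetic lists were not called in the pool sums, where 0.721% of all genes were called, so few calls would be found in lists of this size at that share. None passed in edgeR among 78 cytosolic ribosomal proteins, 74 respiratory chain subunits, 75 mitochondrial ribosomal proteins, 38 glycolysis and hypoxia genes, 36 glutathione and NRF2 genes, 58 MYC targets, and 32 proteasome subunits. Their medians lay between -0.06 and -0.01 on the log2 scale. In WT and STAT3ko alone, 17 of 58 MYC targets and 11 of 37 glycolysis and hypoxia genes were lower, with 0 and 1 higher in edgeR, beside 12.5% lower of all genes. In the same fit 4 of 78 cytosolic ribosomal, 3 of 74 respiratory chain, 7 of 74 mitochondrial ribosomal, 4 of 35 glutathione, and 4 of 32 proteasome genes were lower. Genotype accounted for a median of 69.9% of the sum of squares of the MYC targets and replicate number for 1.99%. For the immediate early genes the shares were 17.5% and 60.3%. Of 61 interferon-stimulated genes none passed in edgeR (median 0.08). Without STAT3ko PD-1ko, 17 of 61 were higher and 5 lower, beside 13.1% and 12.5% of all genes. In CD8+ T cells of these genotypes 26 of 59 were higher and 3 lower, beside 13.2% and 15.6%. In their CD4+ T cells 16 of 60 were higher and 11 lower, beside 14.8% and 17.1%. In pairs, their medians were 0.02, 0.09, 0.31, and 0.23 in WT CD4+, STAT3ko CD4+, WT CD8+, and STAT3ko CD8+ T cells and -0.15 and -0.16 in STAT3ko PD-1ko pairs. That difference in sign between genotypes was not tested.

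Lists of T cell state held few calls beyond the genes already named. Beside them, 0.47% of all genes tested were lower and 0.251% higher, so that lists of this size would hold few or no calls at that share. Of 25 inhibitory receptor and exhaustion genes 3 were lower, the transcription factors Nr4a1, Nr4a2, and Irf4. Outside that list, the inhibitory receptor gene Lilr4b fell by 0.81 and its close relative Lilrb4a by 0.57 on the log2 scale (adjusted p = 0.0168 and 0.0452 in edgeR's quasi-likelihood test). Each was lower in all 6 pairs. Reads of the pair may have been split in counting, and both were named after their values were seen. Of 27 chemokine receptor and integrin genes 2 were lower (Cxcr4 and Gpr183), and of 19 cytotoxic granule and death ligand genes 1 was lower (Fasl). No gene was called by edgeR among 23 genes of naive and memory cells and homing (median 0.04), 26 of helper lineages and regulatory T cells (0.10), 14 NK lectin receptors (-0.03), 22 of MHC class I presentation (0.04), and 18 clock genes (-0.06). The same held for 24 cholesterol genes (-0.16), 15 nuclear and noncoding RNAs (-0.26), and 19 heat shock genes, where 18 of 19 fold changes were negative (-0.25). Without STAT3ko PD-1ko, 15 of those 19 heat shock genes were lower, beside 12.5% of all genes. In that fit 9 of 25 inhibitory receptor and exhaustion, 7 of 18 clock, and 7 of 24 cholesterol genes were lower, with 0, 2, and 0 higher in edgeR. Of 23 naive and memory genes 7 were higher and 3 lower, and of 26 helper and regulatory genes 6 were higher and 4 lower, beside 13.1% and 12.5% of all genes. Of 17 cytotoxic granule and death ligand genes 3 were higher and 6 lower in that fit. In CD4+ T cells of these genotypes 10 of the 17 were lower, beside 17.1% of all genes.

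**Figure D4:**
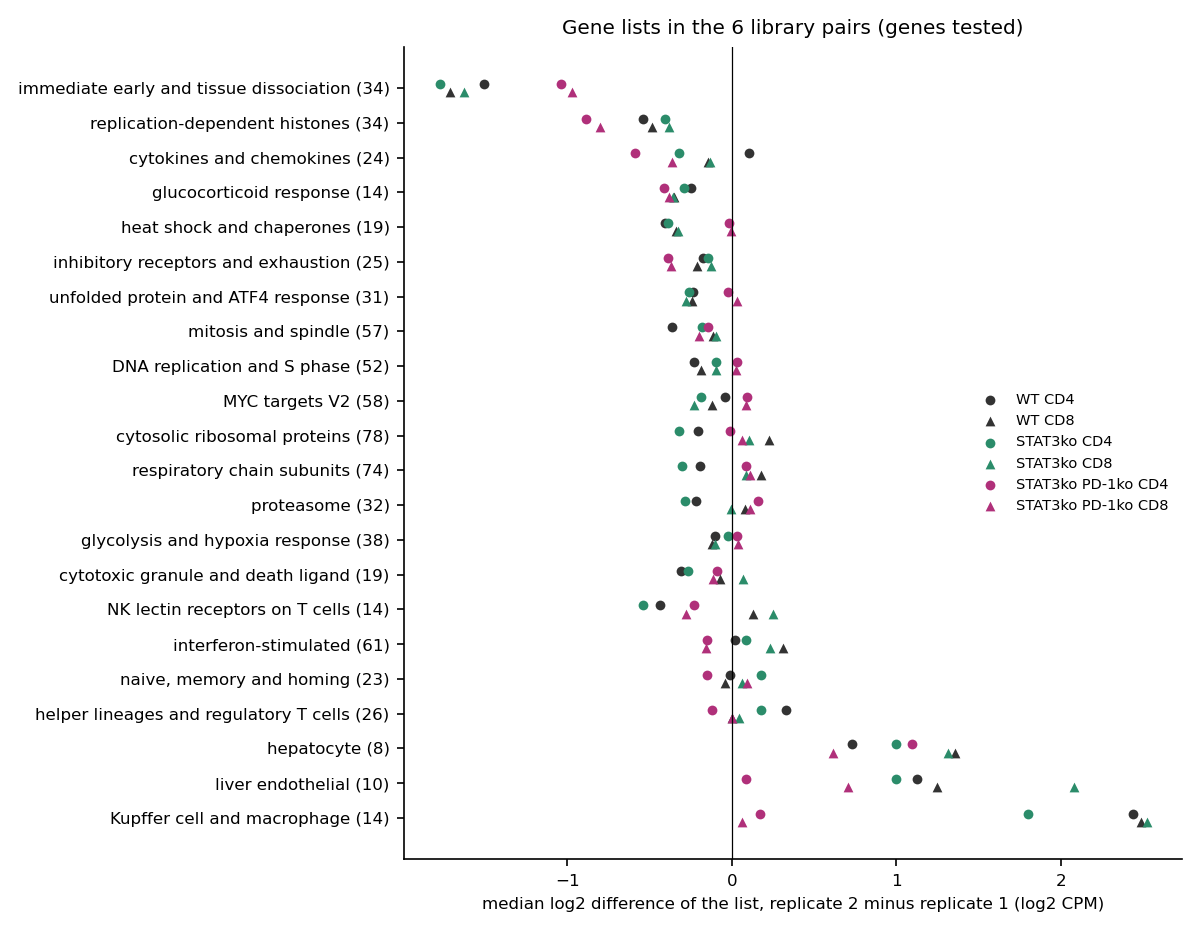
Median log2 difference, replicate 2 minus replicate 1, of 22 gene lists in each of the 6 library pairs, with genotype as color, subset as symbol, and the number of genes tested in parentheses. Immediate early genes lie between -1.78 and -0.97. Cytosolic ribosomal proteins lie between -0.32 and 0.22, negative in CD4+ pairs and positive in CD8+ pairs. Kupffer cell genes lie at 1.80 or above in WT and STAT3ko pairs and near 0 in STAT3ko PD-1ko pairs. Those medians rest on genes near the detection limit, and the difference between genotypes was not tested.

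Within CD4+ T cells alone, 183 genes were lower and 103 higher of 11959 (2.39% called). Within CD8+ T cells alone, 31 were lower and 11 higher of 12002 (0.35%). All 60 genes that fell in the pool sums were called in CD4+ T cells and 29 in CD8+ T cells. Of the 34 immediate early genes 23 were called in CD4+ and 10 in CD8+ T cells, and the difference in these counts is no test of a difference between the subsets. The difference itself, tested with each pool as a block, was called for 0 of 12334 genes (0%) by edgeR, with 1507 at an unadjusted p under 0.05, while DESeq2 called 1. Cd8a and Fasl came nearest (both adjusted p = 0.142 in edgeR's quasi-likelihood test), with differences of -1.91 and 0.88 on the log2 scale. Fasl went from 161, 229, and 87.6 CPM to 45.1, 69.4, and 35.2 CPM in CD4+ libraries and from 183, 175, and 76.2 CPM to 104, 117.5, and 41.9 CPM in CD8+ libraries of WT, STAT3ko, and STAT3ko PD-1ko. The fall was larger in CD4+ than in CD8+ T cells in each genotype.

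In WT and STAT3ko alone many genes were called for a difference between the subsets, while the fit of 3 genotypes called 0 of 12334. With the STAT3ko PD-1ko libraries left out, the difference in CD8+ minus that in CD4+ T cells was called higher for 16.5% and lower for 17.8% of 12029 genes. The alternative was chosen after seeing the data, and with 1 residual degree of freedom it rests on the likeness of 2 genotypes. Of 32 proteasome genes 21 were higher and 1 was lower in that contrast (median 0.26), and 20 of 32 were lower in CD4+ T cells, beside 17.1% of all genes. Of 77 cytosolic ribosomal protein genes 41 were higher and 1 was lower in that contrast (median 0.36), and of 74 respiratory chain genes 41 were higher and 3 lower (median 0.36). The replicate difference also varied with gene length and GC content. Over 5 equal bins of genes by exon length, the median log2 difference of the WT and STAT3ko CD4+ pairs was -0.14 and -0.16 in the shortest bin and 0.15 and 0.19 in the longest. In CD8+ pairs it was 0.09 and 0.06 over the shortest and 0.05 and 0.03 over the longest. By transcript GC content it ran from -0.17 and -0.24 in the lowest bin to 0.15 and 0.20 in the highest in CD4+ pairs, and from 0.07 and 0.02 to -0.01 and 0.02 in CD8+ pairs. In STAT3ko PD-1ko it ran from -0.07 to 0.06 in the CD4+ pair and from -0.14 to 0.13 in the CD8+ pair over the same GC bins. The part of length and GC content in the list differences was not tested. In the same libraries, 33 of 76 ribosomal protein genes were lower in replicate 2 of CD4+ T cells and none was higher by edgeR, beside 17.1% and 14.8% of all genes. In CD8+ T cells 23 of 77 were higher and 1 was lower, beside 13.2% and 15.6%. Rpl4 was at 1925 and 1945 CPM in WT and STAT3ko CD4+ libraries of replicate 1 and at 1682 and 1566 CPM in replicate 2, and in CD8+ libraries it was at 1920.5 and 1865 CPM and at 1994 and 1919 CPM. The STAT3ko PD-1ko pairs had ribosomal protein medians of -0.01 in CD4+ and 0.06 in CD8+ T cells.

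Cytotoxic and lectin receptor genes were also called in that contrast of 2 genotypes, with the same limits. Of 17 cytotoxic granule and death ligand genes 12 were higher and 2 lower in CD8+ minus CD4+ T cells of WT and STAT3ko, beside 16.5% and 17.8% of all genes, and of 14 NK lectin receptor genes 9 were higher and none was lower by edgeR, with a median of 0.71. Klrk1, which encodes the activating receptor NKG2D, was at 40.3 and 156 CPM in WT and STAT3ko CD4+ libraries of replicate 1 and at 22.97 and 115 CPM in replicate 2. In CD8+ libraries it was at 267 and 318 CPM and at 306 and 403 CPM. In the fit of all 3 genotypes its difference was 0.59 and did not pass (adjusted p = 0.348 in edgeR's quasi-likelihood test). B2m, the light chain of MHC class I, had a difference of 0.56 without the STAT3ko PD-1ko libraries, which passed. With them the difference was 0.37 and did not pass (adjusted p = 0.348 in edgeR's quasi-likelihood test).

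Most marker genes of other liver cells were at low levels in both sets, and 1 gene of the Kupffer cell, hepatocyte, and endothelial lists, Lyz2, passed the test in the pool sums, as did Apoe outside those lists. In bulk libraries, more cells of a type and more RNA per cell cannot be told apart. Of 14 Kupffer cell and macrophage genes tested, 12 had a positive fold change (median 2.50), and 1, the lysozyme gene Lyz2, was called. In WT and STAT3ko alone 11 of 14 were higher, beside 13.1% of all genes, and 11 of 14 were higher with the 12 libraries as separate samples, beside 7.03%. Genes near the detection limit may pass the count filter through the set where they were higher, so these signs and counts support no conclusion. The list median rested on genes near the detection limit: it was -0.0044 with at least 10 counts in every library and 0.30 on log2(RPKM + 1). With unpaired pools it was 1.16, and the cause of that move was not tested. Clec4f, a lectin of Kupffer cells, was at 0.0899, 0.187, and 0.0433 CPM in WT, STAT3ko, and STAT3ko PD-1ko CD4+ libraries of replicate 1 and at 1.65, 1.117, and 0.241 CPM in replicate 2. In CD8+ libraries it was at 0.219, 0.0426, and 0.222 CPM and at 1.49, 1.02, and 0.0828 CPM. List medians were 1.80 to 2.52 in WT and STAT3ko pairs and 0.06 and 0.17 in STAT3ko PD-1ko pairs, a difference that was not tested. The summed level of the 18 genes was 23.1 to 43.5 CPM in replicate 1 and 25.8 to 56.2 CPM in replicate 2. Most of it came from Cd68 and Hmox1, which barely differed.

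**Figure D5:**
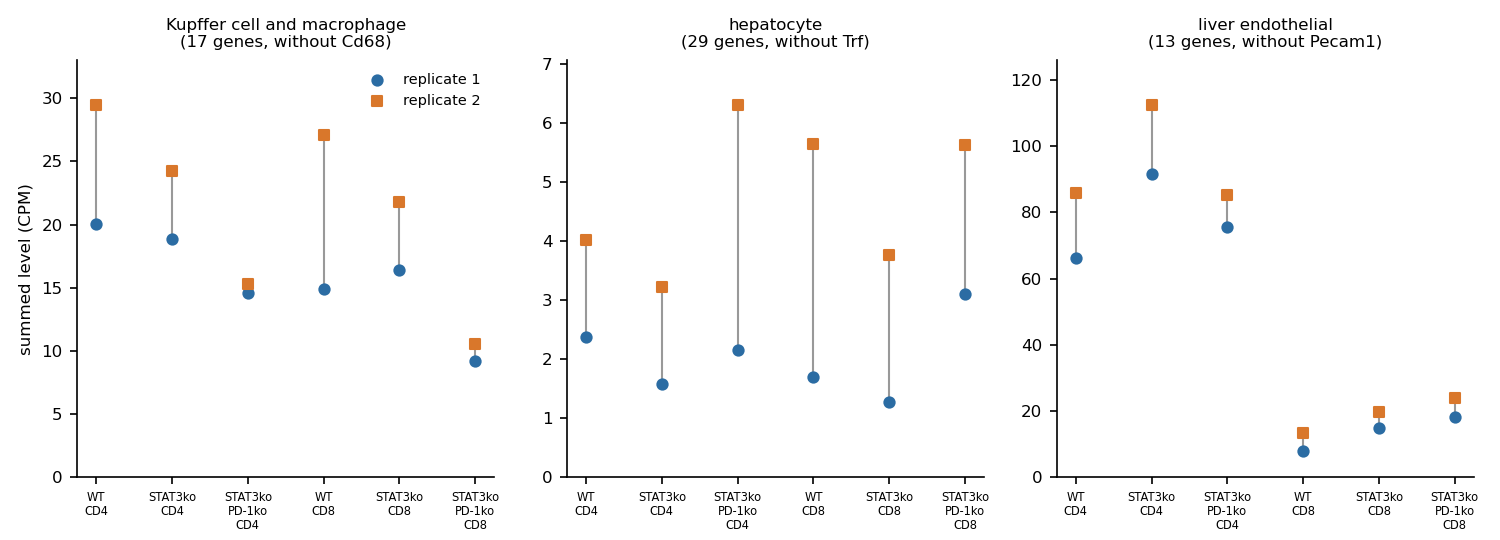
Summed level in CPM (linear axes from 0) of Kupffer cell and macrophage, hepatocyte, and liver endothelial marker genes in each of the 12 libraries, leaving out the most abundant gene of each list. Replicate 2 (orange squares) lies above replicate 1 (blue circles) in every pair, by the least for Kupffer cell genes in STAT3ko PD-1ko (14.6 to 15.3 and 9.23 to 10.6 CPM).

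All 8 hepatocyte genes tested had a positive fold change without a call (median 1.54, but 0.90 with at least 10 counts in every library and 0.14 on log2(RPKM + 1)), and the 30 genes of that list summed to 1.92 to 4.84 CPM in replicate 1 and 4.47 to 8.40 CPM in replicate 2. Alb was at 0.0433 to 0.256 CPM in replicate 1 and at 0.205 to 0.524 CPM in replicate 2, and Mup20 is listed at 0 in all libraries. Of 10 liver endothelial genes 9 were positive without a call (median 1.92, but 0.15 with at least 10 counts in every library, 0.094 on log2(RPKM + 1), and 0.32 with unpaired pools). With WT and STAT3ko alone, 5 of 8 hepatocyte, 6 of 9 liver endothelial, and 5 of 9 dendritic cell and class II genes were higher and none was lower by edgeR, beside 13.1% and 12.5% of all genes. With the 12 libraries as separate samples, 6 of 7 hepatocyte, 4 of 9 liver endothelial, and 2 of 10 dendritic cell genes were higher, beside 7.03% of all genes. Only 8 of the 30 hepatocyte genes passed the count filter. Genes at such low levels may pass it through the set where they were higher, so these signs and counts support no conclusion. The most abundant endothelial gene, Pecam1, is also expressed by T cells and had a log2 fold change of 0.05. Without it the endothelial genes summed to 66.2 to 112 CPM in CD4+ libraries and 8.05 to 23.8 CPM in CD8+ libraries, most of which was Dnase1l3 in CD4+ libraries (64.0 to 109 CPM). H2-Ea-ps, which BALB/c recipients transcribe and C57BL/6 donors do not, was at 0.0438 to 0.233 CPM in replicate 1. In replicate 2 it was at 0.720, 0.670, 0.967, and 0.5735 CPM in WT and STAT3ko libraries and at 0.121 and 0.0828 CPM in STAT3ko PD-1ko libraries (log2 fold change 2.10, not called). Apoe, made by macrophages and hepatocytes, rose by 1.61. In the pool sums no gene of the B cell, NK cell, dendritic cell, neutrophil, or stellate cell lists was called (3, 9, 10, 2, and 4 tested). The hemoglobin genes are listed at 0 in all libraries, as are Rpl26 and Ndufs5, which every cell uses, so a listed 0 is not read as absence. The part of these cells in the other differences was not tested.

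Coreceptor genes of the other subset were at low levels and did not differ alike. Cd8a in CD4+ libraries went from 0.494, 0.42, and 1.13 CPM to 0.805, 1.97, and 5.71 CPM in WT, STAT3ko, and STAT3ko PD-1ko, higher in each pair, and passed the test within CD4+ T cells (log2 fold change 1.91, adjusted p = 0.0418 in edgeR's quasi-likelihood test). Cd8b1, the other CD8 chain, was more abundant in CD4+ libraries and went from 13.03, 11.62, and 14.08 CPM to 10.04, 9.47, and 19.6 CPM, without passing (log2 fold change -0.05, and -0.35 in WT and STAT3ko alone). Cd4 in CD8+ libraries went from 0.350, 0.639, and 0.533 CPM to 1.49, 0.778, and 2.77 CPM and did not pass (adjusted p = 0.205 in edgeR's quasi-likelihood test). In their own subsets Cd4 and Cd8a had log2 fold changes of 0.05 and 0.14. Rn45s, the precursor of ribosomal RNA, which should be rare in poly(A) libraries, was at 5248 to 18604 CPM in replicate 1 and at 6948 to 8597 CPM in replicate 2. The highest were STAT3ko PD-1ko CD4+ and WT CD8+ T cells of replicate 1. Ddx3y was at 111 to 176 CPM in all libraries, and Xist was at most 0.266 CPM. None of 4 sex-linked genes passed in the pool sums in edgeR, and in WT and STAT3ko alone 2 were lower and 1 higher, with Ddx3y at -0.19 on the log2 scale.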

How the data were processed

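RNA-Seq of sorted H-2Kb+ TCRb+ CD4+ or CD8+ liver T cells gave 1 count table and 1 RPKM table of 25078 genes over 12 libraries. Per the study's methods, the authors aligned reads to mm10 with STAR and counted them per RefSeq gene with htseq-count. The deposited data hold counts and RPKM values. The strand setting of the counting was not given in the sources used here. The protocol labels describe mesenchymal cells and another library kit and were not used. CD4+ and CD8+ counts of a pool were added, genes were filtered with filterByExpr (at least 10 counts), and edgeR 4.0.16 (R 4.3.3) with TMM scaling and the quasi-likelihood test was fitted with genotype and replicate number as terms, with Benjamini-Hochberg adjustment at 0.05. The same was done per subset, and the difference between subsets was fitted with the pool as a block. The study states that its data on these liver T cells were combined from replicate experiments, without tying library numbers to them, so p-values measure the spread between these pools. CPM used TMM-scaled totals, and depth was 21676125 to 24551477 counts. Fits were tested on simulated data, where the fits of pool sums and of single subsets recovered nearly all known changes and made more false calls than the threshold allows. Those changes were of at least 2-fold, in genes of at least 3 log2 CPM, and alike in all genotypes. Recovery of smaller changes, or of changes that differ between genotypes, was not tested. Alternatives were DESeq2 1.42.0, limma 3.58.1 on voom values and on log2(RPKM + 1), all 12 libraries as separate samples, unpaired pools, upper quartile and DESeq2 scaling, filters of 1 and 10 counts, and leaving out each pool. Members and 38 gene lists were chosen with earlier results of these data known. Named genes were the 8 largest rises and falls of at least 3 log2 CPM that held in all 6 pairs, up to 2 called members of each list in each direction or else its most abundant gene, and the targeted, coreceptor, and sex-linked genes. Genes picked for their subset difference, none of them called for it, were added. Other genes were named after their values were seen. Of the table's names, 26 were turned into dates and 2 were duplicates.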

Additional observations from a re-analysis of the deposited data

Results flagged for a closer look

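Of 103 items tested (65 genes and 38 lists), 1 had a library pair far from the other 5. Cd22, an inhibitory receptor of B cells, had a log2 difference of 1.096 in WT CD4+ T cells, and the other 5 pairs lay between 0.0618 and 0.396. Chance picks out about 1 in 20 groups in this way.

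In 15 items, all pairs of one genotype or subset had the opposite sign to all others. For STAT3ko PD-1ko against the other genotypes, which was not tested, the mean log2 difference was 0.126 for the ATP synthase subunit Atp5a1 (others -0.215 to -0.172), 0.0773 for the lactate dehydrogenase Ldha (others -0.375 to -0.127), and 0.181 for Mrpl9 of the mitochondrial ribosome (others -0.351 to -0.115). It was -0.281 for the IL-18 receptor Il18r1 (others 0.103 to 0.563) and -0.201 for the IL-7 receptor Il7r (others 0.172 to 0.776). List medians followed the same split. The mean was -0.155 for interferon-stimulated genes (others 0.0172 to 0.312), 0.0262 for DNA replication, 0.0867 for MYC targets, 0.0332 for glycolysis, and 0.0822 for glutathione genes, each of which was negative in the other pairs. For Pdcd1, STAT3ko had a mean of 0.223 and the others -1.07 to -0.0503, also not tested.

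Between subsets, CD4+ pairs had a mean of -0.112 for Ly6a (CD8+ 0.185 to 0.669), 0.358 for Palm (CD8+ -0.315 to -0.0925), -0.335 for Plac8 (CD8+ 0.123 to 0.456), and -0.181 for the cytosolic ribosomal proteins (CD8+ 0.0612 to 0.224). Ly6a, Palm, and Plac8 were followed because of their subset difference, so their opposite signs restate that choice. The test of the subset difference called none of the 3 genes with 3 genotypes in edgeR. In WT and STAT3ko alone it called all 3, with CD8+ minus CD4+ differences of 0.69 for Ly6a, -0.57 for Palm, and 0.79 for Plac8.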

How the results depend on the processing

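Counts of calls moved far more than directions. In the pool sums (32 higher and 60 lower), 12 libraries as separate samples gave 867 and 866, limma-voom 464 and 454, DESeq2 304 and 386, upper quartile scaling 16 and 35, log2(RPKM + 1) with limma 6 and 19, and WT and STAT3ko alone 1623 and 1559. A filter of 1 count gave 110 lower. Without the replicate block, that is with pools not paired within genotype, 0 genes were higher and 1 was lower. Leaving out each pool gave 3 to 1664 higher and 31 to 1662 lower, most without a STAT3ko PD-1ko pool and fewest without a WT pool. Of the 60 fallen genes, 59 were called by DESeq2, 35 with upper quartile scaling, and 19 with RPKM, and all 60 kept their direction wherever they were tested. CD4+ T cells (103 higher, 183 lower) gave 260 and 481 with DESeq2, 248 and 416 with a filter of 1 count, 14 to 2028 and 113 to 2052 without each library, and 1715 and 1986 in WT and STAT3ko alone. CD8+ T cells (11 higher, 31 lower) gave 91 and 183 with DESeq2, 51 and 131 with a filter of 1 count, 5 higher with one of 10, 11 to 1646 and 64 to 1945 without each library, and 1546 and 1829 in WT and STAT3ko alone. The subset difference gave 1 higher with DESeq2, 1 and 1 with a filter of 1 count, 1 to 2234 and 1 to 2005 without each pool, and 1986 and 2139 in WT and STAT3ko alone. The cause of these moves was not tested. Where a pool or library was left out, its partner had no pair, so that fit compared the replicates in the remaining genotypes only. Fits that lack a STAT3ko PD-1ko pool are therefore not separate from the fit of WT and STAT3ko alone. The median of the immediate early genes stayed between -1.65 and -1.37. No result that passed the test in the main fit of pool sums changed sign. Of the 65 genes followed over all settings, 12 that did not pass in that fit and had log2 fold changes near 0 changed sign. Among these, Hsp90ab1, Il18r1, and Ddx3y passed in WT and STAT3ko alone (-0.22, 0.30, and -0.19), so those calls changed sign in other settings. For Dnmt1 the log2 fold change was 0.00085 with RPKM and 0.0018 in WT and STAT3ko alone. For Hsp90ab1 it was 0.023 without the block and -0.22 to 0.058 without each pool. For Itgax it was 0.023 in WT and STAT3ko alone and -0.20 to 0.020 without each pool. For Klrk1 it was 0.030 without the block, 0.0054 with upper quartile scaling, 0.11 in WT and STAT3ko alone, and -0.093 to 0.11 without each pool. For Palm it was -0.0094 with DESeq2, -0.018 without the block, -0.018 with a filter of 1 count, -0.0089 with DESeq2 size factors, -0.048 in WT and STAT3ko alone, and -0.051 to 0.052 without each pool. For Plac8 it was 0.0063 with a filter of 10 counts, 0.016 with upper quartile scaling, and -0.052 to 0.032 without each pool. Without each pool it was -0.079 to 0.038 for B2m, -0.030 to 0.085 for Cd4, -0.20 to 0.00086 for Ddx3y, -0.061 to 0.30 for Il18r1, -0.021 to 0.11 for Ly6a, and -0.13 to 0.011 for Psmd8.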
